A study of Mus musculus with 7 samples.

Results

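The Wnt, Fgf and Bmp ligand genes described here are the 62 protein-coding genes of the mouse RefSeq table (GRCm38.p6, the assembly of mm10) whose symbol is Wnt, Fgf, Bmp or Gdf followed by a number. They comprise 19 Wnt, 22 Fgf, 11 Bmp and 10 Gdf genes. A JUNB region is a stretch of overlapping peaks from any of 4 peak lists, and it belongs to the protein-coding gene with the nearest end within 100 kb. By that rule 18 of 12655 JUNB regions belonged to these genes, 4 to Wnt, 10 to Fgf, 3 to Bmp and 1 to Gdf genes. The symbol rule also takes in genes whose products are not extracellular ligands: Bmp1 encodes a procollagen-cleaving metalloproteinase, and Fgf11, Fgf12, Fgf13 and Fgf14 encode intracellular factors.

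Wnt, FGF and BMP proteins are secreted signals that set cell fate and growth in the embryo and act on fibroblasts and heart muscle alike. Wnts bind Frizzled and LRP receptors and steer beta-catenin, and FGFs bind receptor tyrosine kinases and feed the MAP kinase cascade. BMPs and most of the related GDFs bind serine/threonine kinase receptors that act through Smad proteins. JUNB is a subunit of AP-1, a transcription factor that MAP kinase signalling induces.

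The cells were mouse embryonic fibroblasts of the line iMGT-Myh6-eGFP-MEF, which carries a Myh6-eGFP reporter and in which doxycycline (1 μg/mL) switches on MGT, in this field the cardiac reprogramming factors Mef2c, Gata4 and Tbx5. All groups were transfected the day before induction and were harvested and frozen at day 1, about 250000 cells per condition. The 2 groups received siControl, a control siRNA, or siChst7, directed at the sulfotransferase gene Chst7, with 2 JUNB CUT&RUN libraries each; the treatment text of the labels lists siJunb and siH1f0 and not siChst7. CUT&RUN cuts DNA beside an antibody-bound protein, so peaks are read as places where JUNB sat. Whether each peak held JUNB was not tested. Background from the 3 IgG libraries of the series is not analysed here. Peak lists hold no expression, so neither the level of Chst7 nor fibroblast markers could be read from them, and a region beside a gene does not show that the gene was active. Titles number the libraries as biological replicates, but separate cultures are not mentioned, so the spread that the p-values rest on may be a technical one.

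The lists differed in length, from 4735 peaks in siChst7 replicate 2 through 5827 and 6469 in siControl replicates 2 and 1 to 10163 in siChst7 replicate 1. Read depth is stated as 30 M per library in the labels and could not be measured here. Each peak carries a fold enrichment over local background, a ratio given by the authors' peak caller. Folds below are the authors' values, and they describe and rank peaks within a list; the lists were thresholded separately, so a difference in fold or a missing peak is not a measured change in binding.

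No JUNB region in any list covered the 250 bases before the start of a ligand gene for which RefSeq promoter sequence was at hand (44 of 62 genes matched, 55 entries). The closest was a region in siChst7 replicate 1 alone that ended 217 bases ahead of the Wnt1 window. Sequence under the peaks themselves was not used here. The promoters below are those of Wnt1, shown because a region lay beside it, of Fgf2 and Wnt2, shown because each gene had a region in all 4 lists, and of Wnt5b, shown because it holds an AP-1 motif. They are RefSeq sequences of GRCm38.p6, written 5′ to 3′ on the strand of the gene, at chr15:98789607-98789856 (plus strand) for Wnt1, chr3:37348403-37348652 (plus) for Fgf2, chr6:18030446-18030695 (minus) for Wnt2 and chr6:119544348-119544597 (minus) for Wnt5b. Capitals mark the AP-1 motif TGANTCA, searched on both strands, where N is any base. The windows end at the RefSeq transcript start, which can lie inside the outer ends of the gene. Wnt7b and Gdf3, which also had a region in all 4 lists, had no promoter entry. Wnt5b had 3 entries, and the entry with the motif is shown.
Wnt1: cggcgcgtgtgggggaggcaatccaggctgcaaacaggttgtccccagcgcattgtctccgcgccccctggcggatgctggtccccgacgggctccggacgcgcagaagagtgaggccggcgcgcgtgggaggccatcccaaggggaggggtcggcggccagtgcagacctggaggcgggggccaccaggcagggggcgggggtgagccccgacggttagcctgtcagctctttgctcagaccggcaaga
Fgf2: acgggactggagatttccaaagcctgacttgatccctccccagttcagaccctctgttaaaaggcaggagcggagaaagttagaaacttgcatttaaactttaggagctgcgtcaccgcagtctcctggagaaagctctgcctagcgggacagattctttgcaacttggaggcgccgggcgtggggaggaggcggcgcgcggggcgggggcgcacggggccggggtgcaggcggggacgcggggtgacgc
Wnt2: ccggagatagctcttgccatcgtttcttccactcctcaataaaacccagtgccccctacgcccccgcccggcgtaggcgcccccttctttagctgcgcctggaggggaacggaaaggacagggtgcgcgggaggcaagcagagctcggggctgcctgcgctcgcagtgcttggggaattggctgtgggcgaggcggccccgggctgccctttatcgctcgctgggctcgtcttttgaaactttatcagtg
Wnt5b: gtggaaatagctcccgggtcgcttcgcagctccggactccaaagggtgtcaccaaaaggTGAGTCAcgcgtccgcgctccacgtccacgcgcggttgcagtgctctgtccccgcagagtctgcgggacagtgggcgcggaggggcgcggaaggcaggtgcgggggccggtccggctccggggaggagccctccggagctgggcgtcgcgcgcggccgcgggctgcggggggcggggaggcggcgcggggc

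AP-1 motifs were no more frequent in these promoters than elsewhere. TGANTCA stood in 3 of 55 ligand promoter entries (5.45%), those of Wnt5b, Fgf12 and Fgf13, against 6.75% of all 32851 entries of the same length. None of these 3 genes owned a JUNB region. The related motif TGACGTCA, whose matches are not matches of the first, stood in 0 of 55 entries against 1.55% of all. A match describes letters in the window and not a bound site, and these windows say nothing of the distal stretches where the regions lay.

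The share of ligand genes that owned a JUNB region was near that of all genes. In both siControl libraries 6 of 62 ligand genes (9.68%) owned a region, against 11.0% of all 21900 protein-coding genes. In both siChst7 libraries the count was 7 of 62 (11.3%), against 11.3% of all genes. A region in all 4 lists was owned by 4 of 62 (6.45%), against 8.32% of all genes, and a region in any list by 15 of 62 (24.2%), against 25.1%. These shares lie near the background. They count genes that own any region, whatever its number of regions, and the density of regions is given below. A gene count over fewer libraries asks less: without siControl replicate 2 the siControl count was 10 and 7 regions stood in all remaining lists, and without siChst7 replicate 2 the siChst7 count was 13. The plot of gene shares sets the families beside all genes.

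**Figure D1:**
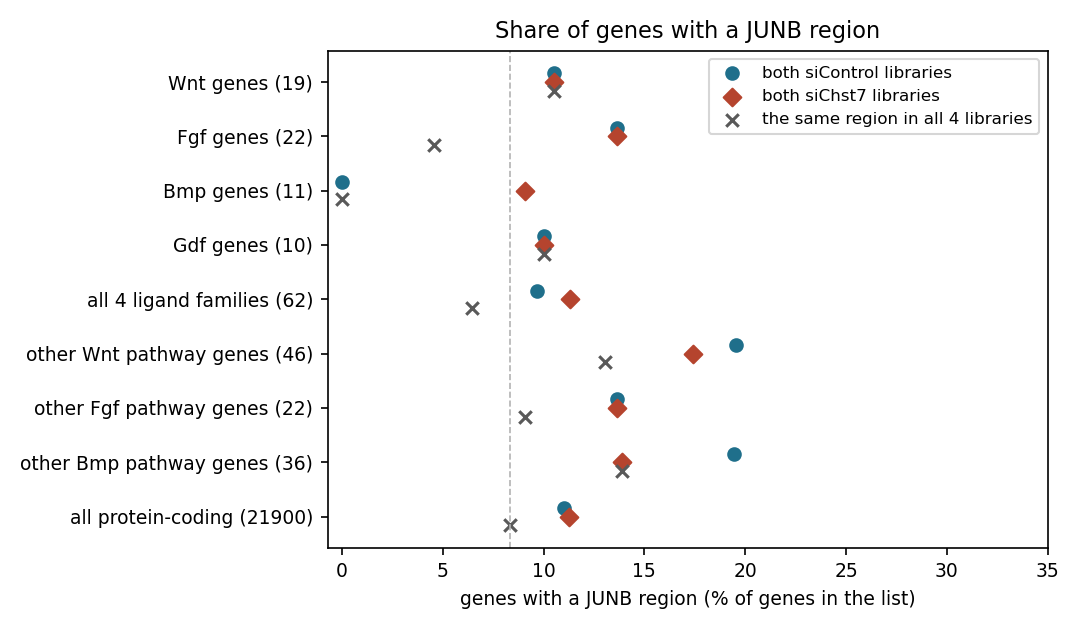
Percent of genes (x axis) that owned a JUNB region in both siControl libraries (circles), in both siChst7 libraries (diamonds) or the same region in all 4 libraries (crosses), for each gene list (y axis, number of genes in brackets). The dashed line is the 8.32% of all protein-coding genes with a region in all 4; the 4 ligand families together sit at 6.45%, and Bmp genes at 0.

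By the nearest-end rule, the stretch of genome nearest to each gene can bear on these counts. Its median was 55.4 kb for the ligand genes and 46.4 kb for all genes, and by family 60.1 kb for Wnt, 69.7 kb for Fgf, 116.8 kb for Bmp and 15.0 kb for Gdf genes. Per Mb of that stretch, the ligand genes held 3.25 regions and all genes 6.49. For regions in all 4 lists the densities were 0.721 and 1.42 per Mb. By family, the density of such common regions was 1.59 per Mb for Wnt, 0.40 for Fgf, 0 for Bmp and 2.10 for Gdf genes. Behind these values stand 2, 1, 0 and 1 common regions, too few to rank the families against all genes. With regions of any list counted, every family lay below the 6.49 per Mb of all genes. Those densities were 3.174 for Wnt, 3.997 for Fgf, 2.296 for Bmp and 2.097 for Gdf genes. These are descriptions without a test, and with 18 regions each rests on few.

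Wnt2 had the Wnt region with the highest fold in both replicate 1 libraries; in siControl replicate 2 that of Wnt7b was higher, and in siChst7 replicate 2 both stood at 9.5. Wnt2 is a Wnt of lung and heart development, and its region (chromosome 6, 17978317 to 17979470) lay 6.7 kb beyond the 3′ end of the gene, outside any protein-coding gene. Its folds were 16.8 and 9.9 in siControl and 12.1 and 9.5 in siChst7, in replicate order, so the groups overlapped. It outranked 96.3% and 83.5% of the peaks of the siControl lists and 87.8% and 80.6% of those of the siChst7 lists. It was also the broadest ligand region, 1154 bp from end to end.

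Wnt7b, which acts in lung and bone growth, was the other Wnt gene with a region in all 4 lists (chromosome 15, 85598851 to 85599733). The region lay 17.6 kb outside the gene, and the next protein-coding gene end was 96.2 kb away. Folds were 6.5 and 10.3 in siControl and 9.8 and 9.5 in siChst7. The lowest and the highest of these came from the siControl pair, so the siRNA groups overlapped fully here.

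Weaker regions lay at 2 pairs of neighbouring Wnt genes, Wnt9a with Wnt3a and Wnt1 with Wnt10b. Wnt9a, a Wnt of joint formation, held a region 1.4 kb inside its 5′ end (chromosome 11, 59308097 to 59308593), with a fold of 5.8 in siControl replicate 1 and 5.8 in siChst7 replicate 1. The nearest end of Wnt3a was 17.5 kb from that summit. Wnt1, a Wnt of midbrain development, had a region 0.5 kb upstream of its start (chromosome 15, 98789164 to 98789389), called in siChst7 replicate 1 alone at a fold of 5.8. That fold was above 33.4% of the list, and the nearest end of Wnt10b was 11.1 kb away. It was the only ligand region within 1 kb of a gene end (1 of 18, 5.56%, against 13.9% of all regions with a gene).

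The other 15 Wnt genes owned no region in any list: Wnt2b, Wnt3, Wnt3a, Wnt4, Wnt5a, Wnt5b, Wnt6, Wnt7a, Wnt8a, Wnt8b, Wnt9b, Wnt10a, Wnt10b, Wnt11 and Wnt16. Of these, 5 had a region common to all 4 lists within 100 kb that was nearer to another gene. Wnt8a had one at 34.1 kb nearest to Fam13b, Wnt5b one at 39.3 kb nearest to Adipor2, and Wnt7a one at 63.0 kb nearest to Tmem43. Wnt4 and Wnt2b were the other two, at 68.3 kb and 93.4 kb. The closest region to a Wnt gene without one of its own was 5.1 kb from Wnt6, was in 2 lists and was nearer still to Prkag3. Wnt5a, the main non-canonical Wnt of mesenchyme, had no region within 100 kb; the nearest of any list was 680.5 kb away.

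Fgf2 was the Fgf gene with a region in all 4 lists. It encodes basic FGF, a mitogen for fibroblasts. The region lay inside the gene, 12.5 kb from its start (chromosome 3, 37360585 to 37361188). Folds were 8.3 and 9.9 in siControl and 10.2 and 10.1 in siChst7. Both siChst7 values were above both siControl values, by 0.2 at the closest. Of the 2785 regions in all 4 lists, 21.9% had both siChst7 folds above both siControl folds, so this order is common among them. The gene table gives gene ends, and exons were not used here.

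Fgf7 owned 3 regions, more than any other ligand gene. It encodes keratinocyte growth factor, which mesenchymal cells secrete to act on epithelium. The first lay 3.2 kb upstream of the start (chromosome 2, 126031078 to 126031668), with folds of 8.7 in siControl replicate 1 and of 6.1 and 6.5 in siChst7, and it was not called in siControl replicate 2. The second lay 19 kb inside the gene (126053224 to 126053768), with 8.9 and 6.8 in siControl and 5.7 in siChst7 replicate 1, and it was not called in siChst7 replicate 2. The third, 25.9 kb from the far end of the gene (126065266 to 126065713), was called in siChst7 replicate 1 alone at 5.3. So no Fgf7 region stood in all 4 lists, and the library that lacked the first was not the one that lacked the second. All 3 also lie within Fam227b, whose body spans this stretch.

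Fgf5 and Fgf23 each had a region in 3 lists. Fgf5, which ends the growth phase of hair, had its region 13.8 kb downstream (chromosome 5, 98290568 to 98291183), with folds of 8.0 and 6.9 in siControl. In siChst7 it was called in replicate 2 at 4.2 and not in replicate 1, the longest list. Fgf23, a bone hormone of phosphate balance, showed the reverse arrangement 15.6 kb upstream of its start (chromosome 6, 127057195 to 127057722). There the folds were 8.5 and 8.2 in siChst7 and 4.3 in siControl replicate 1, with no call in siControl replicate 2. The low folds of both genes outranked 3.0% and 3.5% of their lists, close to the calling threshold.

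The remaining Fgf regions were each called in 1 list. Fgf1, acidic FGF, had 2 neighbouring regions inside the gene (chromosome 18, 38844500 to 38845198 and 38845415 to 38845652), with folds of 6.9 and 6.3 in siChst7 replicate 1; the same stretch lies within Arhgap26. Fgf21, a metabolic hormone, had one 7.9 kb downstream at 6.3 in the same library (chromosome 7, 45605826 to 45606030). Fgf10, a mesenchymal signal of lung and limb outgrowth, had one 3.5 kb inside its 3′ end at 5.2 in siControl replicate 1 (chromosome 13, 118788661 to 118789723). No replicate of the same group shared any of these calls.

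Of 22 Fgf genes, 15 owned no region in any list. They were Fgf3, Fgf4, Fgf6, Fgf8, Fgf9, Fgf11, Fgf12, Fgf13, Fgf14, Fgf15, Fgf16, Fgf17, Fgf18, Fgf20 and Fgf22, and all 4 intracellular factors are among them. Fgf20 had a common region 20.2 kb away that was nearest to Micu3, and Fgf4 and Fgf15 shared one, 99.0 kb and 63.3 kb away, that was nearest to the cyclin gene Ccnd1. Fgf17 had one at 61.4 kb, nearest to Hr. Fgf13 and Fgf16, both on the X chromosome, were the farthest from any common region, at 6841.1 kb and 9642.2 kb.

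Among Bmp genes the most often called region belonged to Bmp1, the procollagen C-proteinase and no BMP-type ligand. It lay 2.7 kb outside the gene (chromosome 14, 70471648 to 70472196), with folds of 9.0 in siControl replicate 1 and of 6.1 and 6.9 in siChst7. The end of Phyhip was 3.0 kb away, so the assignment to Bmp1 was close. Bmp5, a BMP of cartilage and heart, held a region inside the gene, 26.8 kb from its 3′ end (chromosome 9, 75873355 to 75873767), at 5.5 in siControl replicate 2 and 5.6 in siChst7 replicate 1. Bmp6, a regulator of iron balance, held one 65.0 kb inside the gene (chromosome 13, 38410534 to 38410897), at 8.7 in siChst7 replicate 1 alone. No Bmp region stood in all 4 lists.

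Bmp2, Bmp3, Bmp4, Bmp7, Bmp8a, Bmp8b, Bmp10 and Bmp15 owned no region. For Bmp2, Bmp4, Bmp7 and Bmp8b no region of any list lay within 100 kb, and the nearest of any list were 708.6 kb, 210.9 kb, 223.7 kb and 113.5 kb away. Bmp2 and Bmp4 are the BMPs most used in heart and mesenchyme development. Bmp10, a cardiac BMP, had a common region 42.3 kb away that was nearest to Gkn3, and Bmp15 and Bmp3 had one at 50.3 kb and 60.1 kb.

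Gdf3 owned the only Gdf region, which had the highest fold of all ligand regions in replicate 2 of both groups and the second highest in replicate 1 of both, after Wnt2. Gdf3 is a nodal-related ligand known from pluripotent cells. The region lay 5.9 kb outside the gene (chromosome 6, 122615845 to 122616089), 10.4 kb from the end of Dppa3, another gene of pluripotent cells. Folds were 15.5 and 18 in siControl and 12.1 and 10.4 in siChst7. Both siControl values were above both siChst7 values, an order found in 12.6% of the regions in all 4 lists. The region ranked above 95.2% and 97.9% of the siControl peaks and above 87.7% and 85.7% of the siChst7 peaks. With 245 bp it was the narrowest of the 4 common ligand regions. The median width of all common regions with a gene was 928 bp. Gdf1, Gdf2, Gdf5, Gdf6, Gdf7, Gdf9, Gdf10, Gdf11 and Gdf15 owned none, although Gdf11 and Gdf15, in gene-dense stretches, each had 10 regions of other genes within 100 kb.

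**Figure D2:**
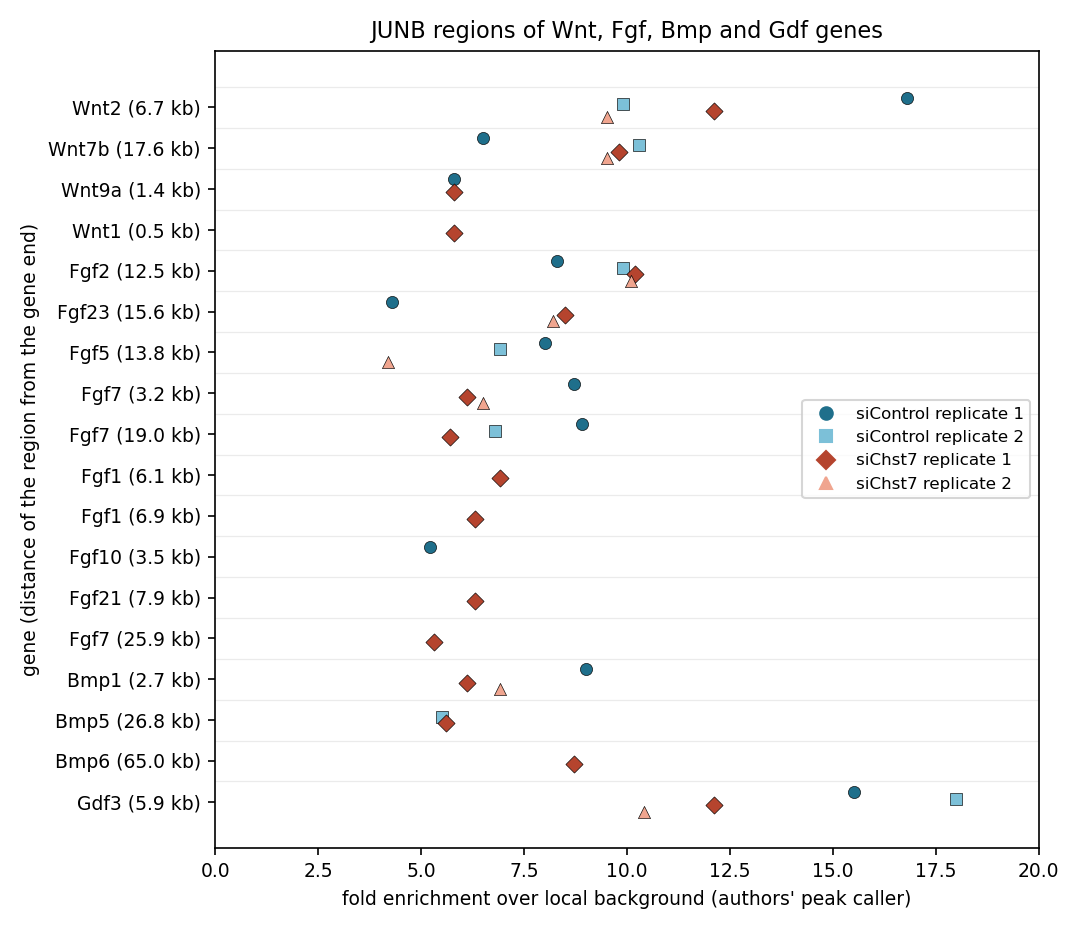
Fold enrichment given by the authors' peak caller (x axis) for each of the 18 ligand gene regions (y axis, gene and distance from its nearest end), with 1 symbol per library in which the region was called. Wnt2, Wnt7b, Fgf2 and Gdf3 carry 4 symbols each, and most other regions lie between 4 and 9.

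Being called in all 4 lists selects for high folds. The median folds of the 4 common ligand regions were 11.9 and 10.1 in siControl and 11.1 and 9.78 in siChst7, beside 8.90, 8.08, 10.6 and 7.68 for all 2785 common regions in the same order. They lay 5.9 to 17.6 kb from their genes, and 1 of the 4, that of Fgf2, was inside its gene. Of all common regions with a gene, 49.6% were inside it. The plot of distances shows the whole set: the median distance was 7.4 kb for ligand regions and 13.1 kb for all regions with a gene. Within 20 kb of the gene end lay 15 of 18 ligand regions (83.3%), against 60.6% of all.

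**Figure D3:**
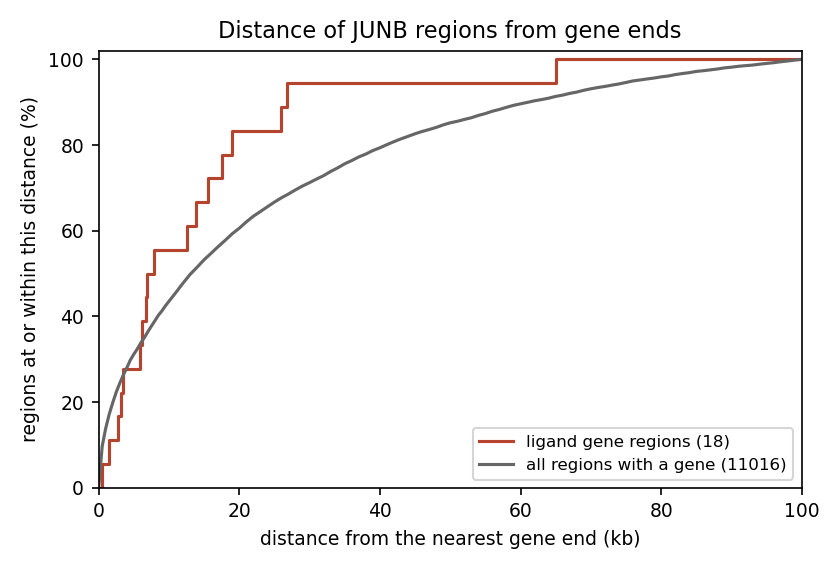
Cumulative percent of regions (y axis) at or within a distance from the nearest gene end (x axis, kb), for the 18 ligand gene regions (red steps) and all 11016 regions with a gene within 100 kb (grey line). From 6.5 kb outward the ligand curve lies above the grey line (38.9% against 35.1% at 6.5 kb). Nearer the gene end it lies mostly below, as at 3 kb (16.7% against 24.4%).

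The farthest ligand region within the 100 kb limit was that of Bmp6 at 65.0 kb. Beyond the limit, 6 regions had a ligand gene as their nearest, those of Fgf14, Fgf10, Bmp4 (2 regions), Fgf9 and Gdf6. The closest was 124.2 kb from Fgf14 and stood in all 4 lists at low folds of 2.8, 3.0, 2.2 and 2.6. The Gdf6 region, 380.8 kb away, was in 3 lists with folds of 7.0 to 8.6. The plot of nearest common regions shows every gene, and its medians were 197.8 kb for Wnt, 226.5 kb for Fgf, 245.2 kb for Bmp and 158.7 kb for Gdf genes.

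**Figure D4:**
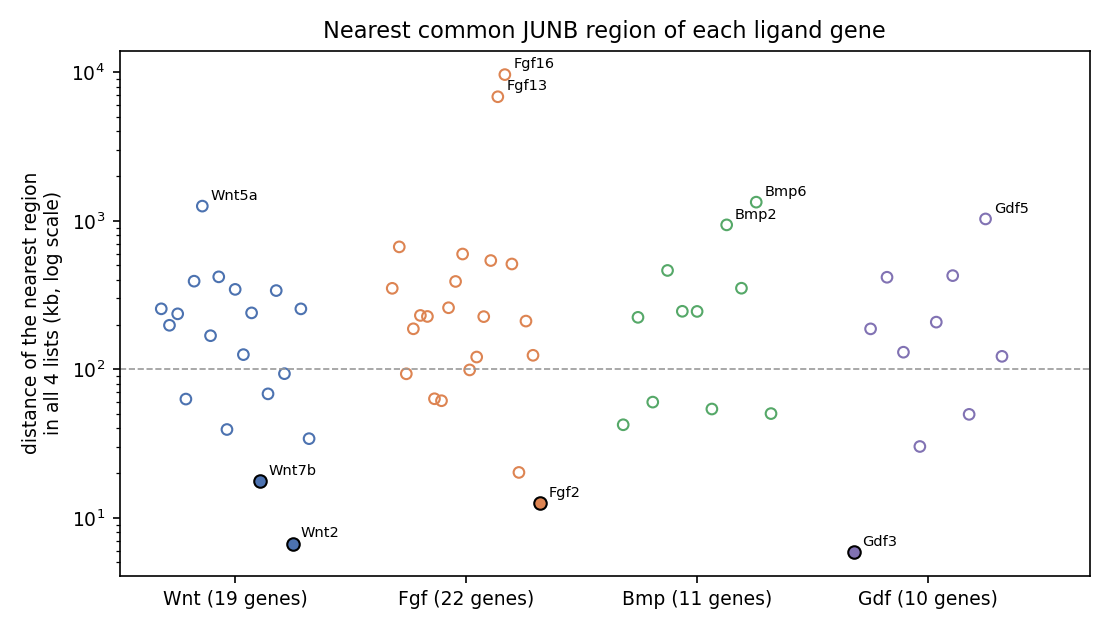
Distance (y axis, kb, log scale) from each ligand gene to the nearest region found in all 4 lists, by family (x axis); filled points are genes that own that region, open points are genes for which it is nearer to another gene or beyond 100 kb. The dashed line is the 100 kb limit. Only Gdf3, Wnt2, Fgf2 and Wnt7b own a common region, at 5.9 to 17.6 kb.

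The siRNA groups were compared by the number of ligand regions per library. The siControl libraries held 11 and 7, a mean of 9.0 ± 2.83 (SD, n = 2). The siChst7 libraries held 16 and 8, a mean of 12.0 ± 5.66 (SD, n = 2). The siChst7 pair thus spanned a wider range than the distance between the means. The difference of mean log2 numbers, siChst7 minus siControl, was 0.37 (two-sided exact permutation p = 0.667, where the design cannot go below 0.33). At equal list length it was −0.085. Without siChst7 replicate 1, the longest list, it was −0.13, and the other libraries left out 1 at a time gave 0.04 to 0.87.

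As a share of each library's regions the groups lay closer. Ligand genes held 0.174% and 0.124% of the regions of the siControl libraries, a mean of 0.149% ± 0.0354 (SD, n = 2). For siChst7 the shares were 0.159% and 0.173%, a mean of 0.166% ± 0.0101 (SD, n = 2). The exact Clopper-Pearson 95% intervals ran from 0.0498 to 0.341% over the 4 libraries and overlapped throughout; they cover counting error only. The difference was 0.0176 percentage points (two-sided exact permutation p = 1), and the libraries of equal number differed in opposite directions, by −0.0146 and 0.0497 points. The direction turned at equal list length (−0.0111 points) and without siControl replicate 2 (−0.0073 points). The plot of library counts shows both measures.

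**Figure D5:**
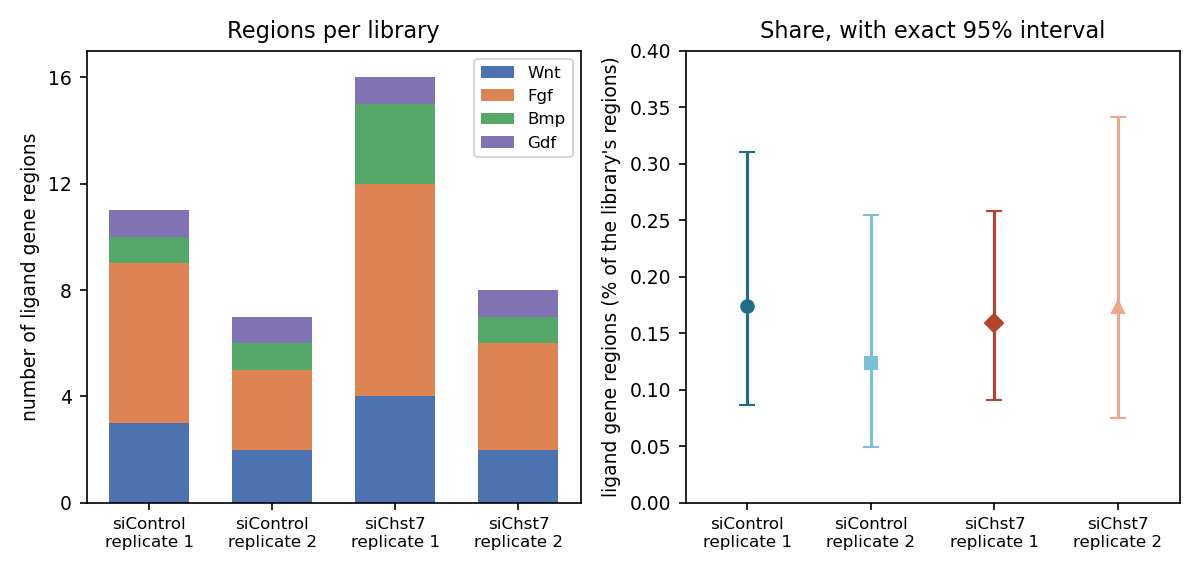
Left, number of ligand gene regions called in each library (y axis), stacked by family. Right, the same number as a percent of all regions of that library (y axis), with exact 95% intervals for counting error. siChst7 replicate 1 has the most regions, 16, and the 4 shares lie between 0.124 and 0.174%.

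The ligand regions found in a single siRNA group were all calls of 1 library, without its replicate. Of 18 regions, 0 were siControl-only (both libraries of that group and none of the other), against 1.60% of all regions, and 0 were siChst7-only, against 3.88%. At those shares 18 regions would hold few or none of either kind, so the zeros are not a result about the ligands. Regions in all 4 lists were 4 of 18 (22.2%), against 22.0% of all regions, and regions in 1 list were 7 of 18 (38.9%), against 46.7%. Of these 7, 6 came from siChst7 replicate 1 and 1 from siControl replicate 1. Over all single-list regions siChst7 replicate 1 supplied 62.4%. The Fgf5 region became a siControl-only region and the Fgf23 region a siChst7-only one when peaks under 5-fold were left out, each through the loss of 1 low peak. Without siChst7 replicate 2, 6 regions of the long siChst7 replicate 1 list became siChst7-only, and without siControl replicate 1, 3 did. Without siControl replicate 2 or either siChst7 library, 1 became siControl-only.

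Receptors, modulators and targets of the 3 pathways were counted the same way, in lists whose genes have longer stretches of genome nearest to them than the ligand genes. In the Wnt list 9 of 46 genes owned a region in both siControl libraries and 8 in both siChst7 libraries (19.6% and 17.4%, against 11.0% and 11.3% of all genes), and 6 owned one in all 4 lists (13.0%, against 8.32% of all genes); the median stretch was 122.0 kb. Tcf7l2, a nuclear partner of beta-catenin, and the receptor gene Fzd6 had 2 common regions each. The best Fzd6 region, 2.3 kb from the gene end, had folds of 6.4 to 13.2. The best Tcf7l2 region (chromosome 19, 55875104 to 55876185), 58 kb from the gene end, had folds of 7.7 and 9.9 in siControl and 17.9 and 10.7 in siChst7. Of all regions in all 4 lists, 21.9% had both siChst7 folds above both siControl folds, as here. Sfrp1, a secreted Wnt inhibitor, had 1 at 8.2 to 12.7, and the co-receptor gene Ryk 1 at 5.8 to 9.3. Fzd7 and Kremen1, which encode a receptor and a receptor for Dkk inhibitors, made up the 6. Regions called in both siChst7 libraries and no siControl library numbered 2, of Fzd6 and of the Wnt agonist gene Rspo2. The siControl-only regions numbered 0. Over all regions 3.88% were siChst7-only and 1.60% siControl-only, and 2 regions are too few to read as a difference. The Fgf list held 0 of either kind, and the Bmp list 1 siChst7-only region, of Bmper, and 0 siControl-only. Whether the pathway lists differ from the ligands was not tested.

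In the Fgf list 3 of 22 genes owned a region in both siControl libraries and 3 in both siChst7 libraries (13.6% and 13.6%, against 11.0% and 11.3% of all genes). The 3 genes were not all the same: Kl was only in the siControl set and Fgfbp1 only in the siChst7 set. In all 4 lists 2 did (9.09%, against 8.32%), which is near the share of all genes, with a median stretch of 72.8 kb. Those 2 were inhibitors of the cascade, Spred2 and the ERK phosphatase gene Dusp6, with 2 common regions each. The best Spred2 region (chromosome 11, 19834824 to 19835820), 88.9 kb from the gene end, had folds of 9.0 to 16.6, and the best Dusp6 region (chromosome 10, 99241743 to 99242926), 20.8 kb away, 5.0 to 15.6. Fgfr1 and Fgfr2 owned 1 region each, called in both libraries of neither group, and Fgfr3 and Fgfr4 owned none.

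In the Bmp list 7 of 36 genes owned a region in both siControl libraries (19.4%, against 11.0% of all genes), 5 in both siChst7 libraries (13.9%, against 11.3%) and 5 in all 4 lists (13.9%, against 8.32%). The median stretch was 122.8 kb. The 5 were Bmper, which binds BMPs outside the cell, the inhibitory Smad genes Smad6 and Smad7, and the BMP target genes Id2 and Id3. Bmper, Smad7 and Id3 had 2 common regions each. The best Bmper region, 55.4 kb from the gene end, had folds of 7.4 to 13.5. The common Smad6 region, 28.5 kb from the gene end, had folds of 5.4 to 12.3. The best Id3 region (chromosome 4, 136122816 to 136124033), 20.4 kb from the gene end, had folds of 16.6 and 7.7 in siControl and 12.7 and 13.2 in siChst7. The best Smad7 region (chromosome 18, 75362735 to 75364276) lay 3.6 kb from the gene end with folds of 5.3 to 9.2. Bmpr1a and Bmpr2, receptor genes, owned 1 region each, called in both libraries of neither group, and the antagonist gene Nog owned none. In the Fgf and Bmp lists no receptor gene owned a region in all 4 lists.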

How the data were processed

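Peak lists of 4 JUNB CUT&RUN libraries were used. Per the submitters' processing notes, the authors used Bowtie2, MACS3 and mm10; their versions, settings and use of a control are not given in the sources used here. Peak names show that each deposited list comes from 1 library. The deposited columns used were the fold, a ratio over local background, and the q-value as −log10, which starts near 2 in every list; the p-value as −log10, the score and the summit position (other) are also deposited, and of these the summit was used.

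Peaks overlapping by at least 1 bp were joined, and each region went to the protein-coding gene with the end nearest its median summit, within 100 kb. Coordinates are 1-based. The gene table has no strand; strand came from the promoter table where it lists the gene. Members and lists were chosen with earlier results of these data known. Named genes were every ligand gene, and up to 4 genes per pathway list with the most common regions, given with values; pathway genes named beyond these were chosen after their values were seen. Libraries were compared by two-sided exact permutation. Intervals are exact Clopper-Pearson, 95%. Joining and assignment were tested on simulated peak lists, with peaks planted close to gene starts that lay away from other gene ends. That test does not cover distant or nearly tied assignments. Alternatives changed the overlap (50%, reciprocal), the q limit (0.001), the least fold (5), the list length (the 4735 best peaks of each by q), the assignment (20 kb, or gene bodies extended by 5 kb), left out each library or added a replicate block. Scripts ran in Python 3.11.15 (pandas 2.3.3, NumPy 2.4.6, SciPy 1.17.1) and figures in Matplotlib 3.10.9.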

Additional observations from a re-analysis of the deposited data

How the results depend on the processing

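Wnt2, Wnt7b, Fgf2 and Gdf3 kept a region in every library analysed under each alternative except gene bodies with 5 kb, which left 1 common region (Fgf2) and 3 and 3 genes with a region in both siControl and both siChst7 libraries. At equal list length the difference in region number was −0.085 on the log2 scale and that in share −0.0111 percentage points. With 1 library left out, the log2 difference ran from −0.13 (without siChst7 replicate 1) to 0.87 and the share difference from −0.0073 (without siControl replicate 2) to 0.0426 percentage points. The same omissions gave 4 to 7 common regions, 0 to 1 siControl-only and 0 to 6 siChst7-only regions, 6 to 10 genes for siControl and 7 to 13 for siChst7; a group that lost a library then needs only 1. The siControl-only count was 1 with 50% reciprocal overlap, with a q of at most 0.001, with a fold of at least 5 (Fgf5 in these 3) and at equal list length (Fgf7). The siChst7-only count was 1 under the last 3 of these settings (Fgf23). With the replicate block the log2 difference was 0.37 (exact sign-flip p = 0.5, the smallest it can give) and the share difference 0.0176 points (exact sign-flip p = 1). The labels do not say that equal numbers share a culture or day, and over the 2785 common regions the deviations of same-numbered libraries correlated at 0.063. Read depth behind the lists is unknown, so a missing peak can be signal below the threshold.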

Other observations

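Other secreted ligand families were counted the same way, with lists chosen after the data had been seen and without a test. Over all protein-coding genes 8.32% owned a region in all 4 lists. Of 11 EGF receptor ligand genes, 4 owned a region in all 4 lists: Hbegf with 4 common regions, and Areg, Ereg and Tgfa with 1 each. Of 9 PDGF and VEGF ligand genes, 3 did: Pdgfb with 2, and Pdgfa and the placental growth factor gene Pgf with 1 each. Of 12 TGF-beta, activin and nodal genes, Tgfb2 had 2 common regions and Inhbb 1. Of 8 Hedgehog and Notch ligand genes, 0 had a common region, and Jag2 was the only one with a region in any list. The median stretch of genome nearest to these genes was 131.8 kb for the EGF receptor list, 110.2 kb for PDGF and VEGF, 23.5 kb for TGF-beta and 37.6 kb for Hedgehog and Notch, so the counts are not on one footing. siChst7-only regions numbered 1 of 7 in the TGF-beta list, 1 of 14 in the PDGF and VEGF list and 0 in the other lists. The siControl-only regions numbered 0 in each of the 4 lists. Over all regions the shares were 3.88% and 1.60%, and 7 or 14 regions are too few to compare with them.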
